A study of Mus musculus with 9 samples.

Results

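Basic helix-loop-helix (bHLH) transcription factors of the proneural, ID, HES/HEY and mesodermal kinds were followed through RNA-seq of 9 mouse libraries from a WNT-medulloblastoma model. The set was given by gene symbol and holds 45 of the 24444 symbols in the count table. It has 18 proneural and neuronal differentiation factors, 2 repressors of the BHLHE40/41 kind, 3 E proteins, 4 ID genes, 8 HES and HEY genes, 8 mesodermal factors and 2 haematopoietic factors. Of the 45 genes, 35 had enough counts for testing, and the other 10 are given by their counts.

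The 3 MycT58A tumours and the 3 EV tumours were orthotopic implants into CD1-nude mice, a strain without a thymus whose own vessels, blood cells and stroma can enter a dissected tumour. The implanted cells came from mice with Blbp-Cre and the alleles Ctnnb1Ex3flx/flx, Trp53flx/flx and Pik3caE545K +/flx, so both tumour groups share those alleles and differ in carrying MycT58A or the vector named EV. MycT58A is a form of Myc with a changed phosphorylation site that slows its breakdown. The 3 control libraries were normal cerebellum of CD1-nude mice and are labelled with none of those alleles. Blbp-Cre acts in radial glia and other neural progenitors, and tumour pieces were dissected by their GFP. The labels give no ages.

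bHLH factors bind E-box sequences as dimers. Proneural and neuronal factors pair with the broadly expressed E proteins Tcf3, Tcf4 and Tcf12 and drive neurogenesis in steps, with Neurog genes early and Neurod and Nhlh genes later. ID proteins lack the DNA-binding basic region and hold E proteins in inactive dimers, and BMP signalling is a known inducer of Id1 and Id3. HES and HEY proteins are repressors, many of them induced by Notch through the DNA-binding protein RBPJ, and HES proteins repress proneural genes. In the cerebellum Atoh1 marks granule neuron progenitors, Ptf1a marks GABAergic progenitors, Neurod1 and Neurod2 are abundant in granule neurons, and Olig1 and Olig2 belong to the oligodendrocyte lineage.

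The MycT58A libraries held 24423717 to 30410089 counts, the EV libraries 16631523 to 29701006 and the control libraries 21154342 to 24780263. Levels are CPM, counts scaled to library size after TMM, a correction for differences in library composition, and differences are log2 fold changes with their standard error (SE). Myc was at 917, 858 and 726 CPM in MycT58A tumours, at 360, 19.9 and 761 CPM in EV tumours and at 0.939, 1.59 and 32.0 CPM in controls. EV replicate 3, a library labelled EV and numbered here in order, therefore lies inside the range of MycT58A for Myc, and Myc did not pass the test between the tumour groups (edgeR adjusted p = 0.592). EV libraries also differed most among themselves, since over all tested genes the median SD of log2 CPM was 0.20 in MycT58A, 0.64 in EV and 0.17 in control libraries. The control libraries held the granule neuron genes Gabra6 (522 to 887 CPM) and Cbln3 (1032 to 1644 CPM) and no count of the cortical gene Emx1, as in cerebellum, although the growth protocol speaks of cortex. In control replicate 3, Myc and the sum of 4 proliferation genes (28.5 CPM, against 1.73 and 1.96 CPM in the other controls) stood above the other controls.

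Between MycT58A and EV tumours, 4 of the 35 tested bHLH genes passed an adjusted p of 0.05 (edgeR quasi-likelihood test, Benjamini-Hochberg adjustment over all 15171 tested genes). Neurod6, Nhlh1 and Bhlhe22, all neuronal differentiation factors, rose, and Hand2, a mesodermal factor, fell. The background share was 8.3% of all tested genes, with 3.28% higher and 5.02% lower. Leaving out 1 library moved the count of 4 to 1 without MycT58A replicate 1, to 2 without MycT58A replicate 2 and to 0 without MycT58A replicate 3, where 11 bHLH genes still had an unadjusted p under 0.05. It came to 8 without EV replicate 2, to 9 without EV replicate 3 and to 2 without any 1 of the control libraries. With all libraries, DESeq2 called 10 and limma-voom 5.

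Between EV tumours and control cerebellum, 27 of the 35 passed, 13 higher and 14 lower, against a background of 57% of all tested genes (30.7% higher and 26.3% lower). Between MycT58A tumours and control, 29 passed, 13 higher and 16 lower, against a background of 62.2% (31.2% higher and 31% lower). Both comparisons use the same 3 controls. The median log2 fold change over the 35 genes was 0.23 for MycT58A over EV, 0.31 for EV over control and -0.54 for MycT58A over control, beside -0.04, 0.14 and -0.02 over all tested genes. Since most genes passed against control, nothing particular to the bHLH set is read from these counts. In both tumour groups 8 proneural and neuronal factors, Id4, Hes3, Hes5 and Bhlhe41 fell relative to control, and all 3 E proteins, Id1, Id3, Hes6, Hey2, Twist1, Twist2, Neurog2 and Atoh8 rose. The heat map shows these blocks.

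**Figure D1:**
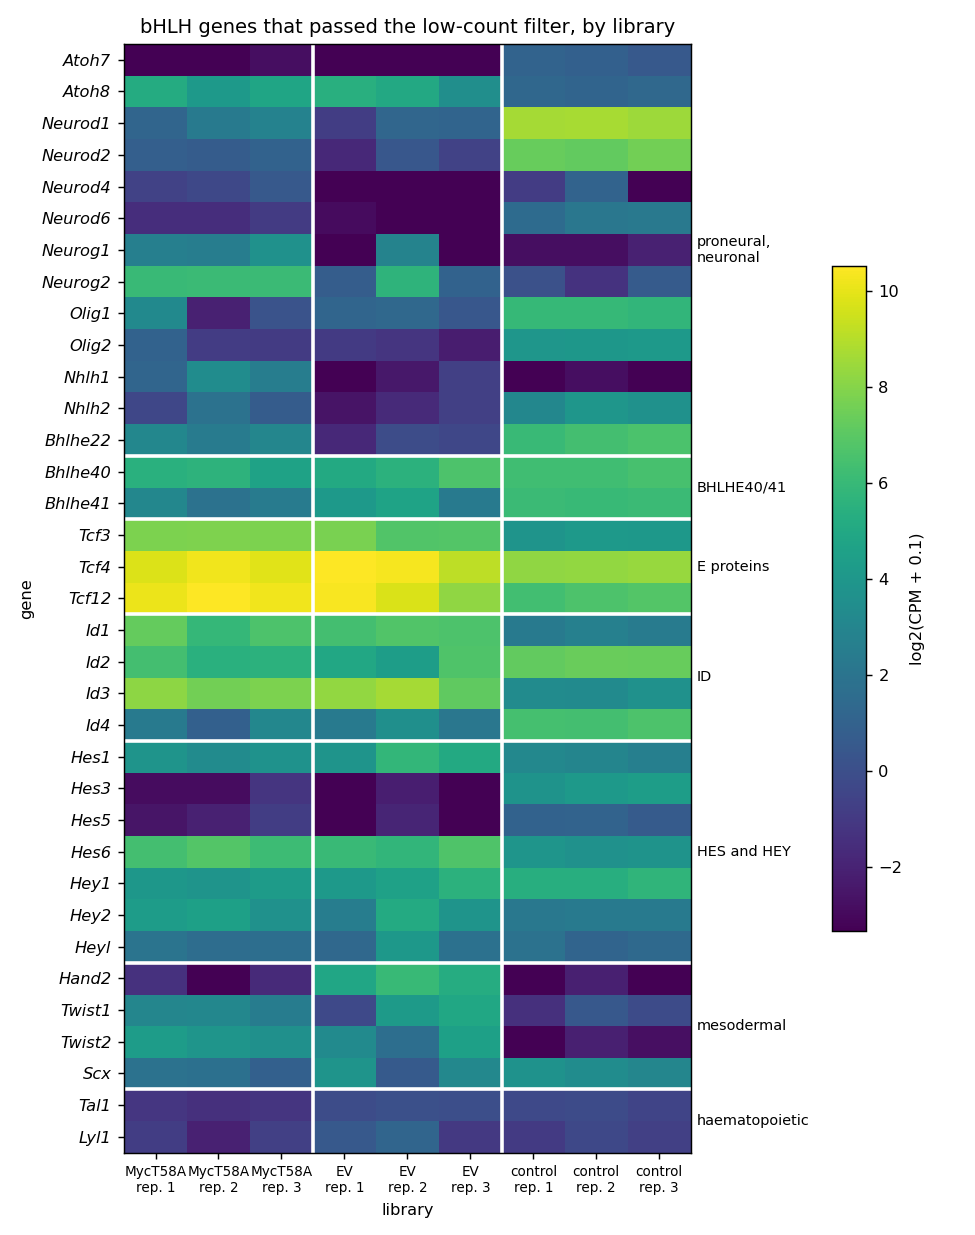
Level of each tested bHLH gene in each library, as log2(CPM + 0.1), with libraries in columns (MycT58A, EV, then normal cerebellum) and genes in rows grouped by class. The E protein rows are high in all 6 tumour libraries, the Neurod1 and Neurod2 rows are high in the 3 controls, and Hand2 is high in the 3 EV libraries.

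Among the proneural and neuronal factors, 13 of 18 were tested. In EV tumours 2 rose and 9 fell relative to control, in MycT58A tumours 4 rose and 8 fell relative to control, and in MycT58A tumours 3 rose and 0 fell relative to EV. For that last direction, DESeq2, limma-voom and an unadjusted edgeR p under 0.05 also gave 0. The 8 that fell in both tumour groups were Atoh7, Neurod1, Neurod2, Neurod6, Nhlh2, Bhlhe22, Olig1 and Olig2. Of these, Neurod6 and Bhlhe22 rose in MycT58A relative to EV while staying below control.

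Neurod1, needed for granule neuron differentiation, was at 2.19, 5.07 and 6.98 CPM in MycT58A tumours, at 0.479, 2.25 and 2.10 CPM in EV tumours and at 412, 424 and 357 CPM in controls. Neurod2, a related factor of neuron maturation, was at 1.73, 1.56 and 1.96 CPM in MycT58A tumours, at 0.205, 1.27 and 0.566 CPM in EV tumours and at 160.3, 146 and 188 CPM in controls. Every control library of both genes lay above every tumour library by far. Neurod1 fell by 7.97 on the log2 scale (SE 0.72) in EV relative to control (edgeR adjusted p = 6.87e-05) and fell by 6.39 (SE 0.66) in MycT58A relative to control (edgeR adjusted p = 0.000104). Neurod2 fell by 7.92 (SE 0.60) in EV, or fell by 8.82 without EV replicate 2, and fell by 6.56 (SE 0.56) in MycT58A relative to control (edgeR adjusted p = 3.69e-05 and 4.77e-05). All 3 MycT58A libraries of Neurod2 were above the 3 EV libraries, but neither gene passed between the tumour groups (log2 fold changes 1.58, SE 0.57, and 1.37, SE 0.50; edgeR adjusted p = 0.105 and 0.11). Neurod1 did pass by DESeq2 (log2 fold change 1.52, adjusted p = 0.0476), and Neurod2 did pass without EV replicate 2 (log2 fold change 2.27, edgeR adjusted p = 0.0086). An exon of Cerkl overlaps Neurod1 on the same strand, so reads there could belong to either.

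The 8 granule neuron markers fell in the same way: their summed level was 26.9 to 69.2 CPM in MycT58A tumours, 13.6 to 54.8 CPM in EV tumours and 3942 to 5742 CPM in controls, with 8 of 8 lower in each tumour group than in control and none of the 8 at 0. The part of granule neurons in the fall of Neurod1 and Neurod2 was not tested. In bulk tissue such as this, fewer cells of a type and less RNA per cell cannot be told apart.

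Neurod6, a factor of differentiating neurons, was at 0.252, 0.248 and 0.426 CPM in MycT58A tumours, at 0.0342, 0 and 0 CPM in EV tumours and at 2.82, 4.34 and 4.66 CPM in controls. These are 24, 1 and 267 counts in the 3 groups, which do not overlap. The MycT58A to EV ratio was 21.3, with an exact 95% interval of 3.47 to 874 that covers counting error only (edgeR adjusted p = 0.0252). That p lost the threshold on leaving out any 1 MycT58A library (0.0838, 0.0803 and 0.101) or any 1 control library (0.0557, 0.0611 and 0.0575), and the single EV count lay in EV replicate 1, without which the log2 fold change was 5.89. Relative to control, Neurod6 fell in MycT58A (log2 fold change -3.66, SE 0.58, edgeR adjusted p = 0.000783). In EV it was 274-fold lower by counts, with an interval of 48.8 to 10880.4 (edgeR adjusted p = 0.000119), and without EV replicate 1 the fitted log2 fold change was -9.54.

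Bhlhe22, a neuronal bHLH repressor at chromosome 3, 18054174 to 18057517 (mm10, plus strand), was at 8.55, 5.35 and 7.96 CPM in MycT58A tumours, at 0.205, 0.849 and 0.680 CPM in EV tumours and at 66.9, 84.6 and 95.9 CPM in controls. The 3 groups formed separate levels, with MycT58A between EV and control. Bhlhe22 rose by 3.67 on the log2 scale (SE 0.47) in MycT58A relative to EV (edgeR adjusted p = 0.00892), although not without MycT58A replicate 3 (edgeR adjusted p = 0.0582). With only the libraries of these 2 groups in the fit its adjusted p was 0.0711. Relative to control it fell by 7.17 (SE 0.53) in EV and fell by 3.50 (SE 0.44) in MycT58A (edgeR adjusted p = 3.27e-05 and 0.000244).

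The NSCL factors Nhlh1 and Nhlh2 act in newly born neurons, Nhlh1 early in cerebellar granule cells. Nhlh1 was at 2.16, 10.5 and 5.75 CPM in MycT58A tumours, at 0, 0.0849 and 0.510 CPM in EV tumours and at 0, 0.0443 and 0 CPM in controls. It was the only one of the late neuronal genes named here that MycT58A tumours held far above control tissue. Nhlh1 rose by 5.03 (SE 1.24) in MycT58A relative to EV (edgeR adjusted p = 0.0437). That call was lost without MycT58A replicate 1, 2 or 3 (edgeR adjusted p = 0.0993, 0.135 and 0.133), without EV replicate 2 (0.0512) and without control replicate 1, 2 or 3 (0.0811, 0.095 and 0.0819). The size was 4.40 without MycT58A replicate 2 or EV replicate 1 and 7.13 without EV replicate 3. Relative to control, 490 counts in MycT58A stood against 1, a 422-fold ratio with an interval of 75.5 to 16716 (edgeR adjusted p = 0.00192). Its fitted log2 fold change of 8.28 came to 7.64 without MycT58A replicate 2 and to 10.24 without control replicate 2, which holds the 1 control count. Between EV and control, 11 counts against 1 did not pass (edgeR adjusted p = 0.124).

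Nhlh2 was at 0.683, 3.58 and 1.53 CPM in MycT58A tumours, at 0.0684, 0.212 and 0.510 CPM in EV tumours and at 8.41, 15.4 and 12.6 CPM in controls. All MycT58A libraries were above all EV libraries and below all controls. The MycT58A over EV change missed the threshold (log2 fold change 2.92, SE 0.80, edgeR adjusted p = 0.0567; DESeq2 adjusted p = 0.00289). Nhlh2 fell by 5.57 (SE 0.87) in EV relative to control, or fell by 6.42 without EV replicate 3, and fell by 2.64 (SE 0.74) in MycT58A relative to control (edgeR adjusted p = 0.000902 and 0.0128). In MycT58A it fell by 3.44 without replicate 2, and without replicate 3 its adjusted p was 0.0519.

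The promoters of the pair are shown because both genes stood higher in every MycT58A than in every EV library. Each window is the RefSeq promoter of build GRCm38.p6 (the mm10 sequence), from 250 bases before to 50 after the start, read along the gene. Capitals mark TGGGAA, the core of the RBPJ motif, on either strand (TTCCCA on the other), or the E-box CAGCTG. The windows lie at chr1:172057547-172057846 on the minus strand for Nhlh1 and at chr3:102009895-102010194 on the plus strand for Nhlh2.
Nhlh1: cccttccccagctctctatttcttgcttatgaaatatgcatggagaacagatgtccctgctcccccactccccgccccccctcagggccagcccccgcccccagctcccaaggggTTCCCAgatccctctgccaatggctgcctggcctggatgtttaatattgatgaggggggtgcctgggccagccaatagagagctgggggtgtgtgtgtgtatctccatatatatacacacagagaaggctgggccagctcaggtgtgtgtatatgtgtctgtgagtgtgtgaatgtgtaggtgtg
Nhlh2: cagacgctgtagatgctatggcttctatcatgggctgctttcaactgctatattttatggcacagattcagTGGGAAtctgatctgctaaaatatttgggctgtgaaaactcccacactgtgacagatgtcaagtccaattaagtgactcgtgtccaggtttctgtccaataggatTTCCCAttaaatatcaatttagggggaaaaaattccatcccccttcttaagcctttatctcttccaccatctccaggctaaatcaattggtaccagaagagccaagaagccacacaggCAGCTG
Nhlh1 has 1 RBPJ core and Nhlh2 has 2, with a CAGCTG E-box after the start of Nhlh2. TGGGAA was in 25.6% of the 32851 promoter windows and in 11 of the 37 windows of these bHLH genes (32 genes had a window). CAGCTG was in 16.3% of all windows and in 8 of the 37.

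The Neurog genes start neurogenesis and turn on Neurod genes in other tissues. Neurog2 was at 67.3, 69.6 and 70.7 CPM in MycT58A tumours, at 1.57, 51.3 and 1.93 CPM in EV tumours and at 0.980, 0.310 and 1.49 CPM in controls. Neurog1 was at 6.29, 5.78 and 12.5 CPM in MycT58A tumours, at 0, 7.34 and 0 CPM in EV tumours and at 0.0408, 0.0443 and 0.140 CPM in controls. MycT58A libraries were even for Neurog2, with a mean of 69.2 ± 1.72 CPM (SD, n = 3), while among EV libraries replicate 2 alone held both genes.

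Relative to control, MycT58A tumours rose in Neurog2 by 6.22 on the log2 scale (SE 1.46, edgeR adjusted p = 0.00567) and in Neurog1 by 6.70 (SE 2.17, edgeR adjusted p = 0.0248). The Neurog1 call was lost without MycT58A replicate 3 (edgeR adjusted p = 0.0569) and without control replicate 1, 2 or 3 (0.0814, 0.0813 and 0.0621), and without control replicate 3 its size was 7.44. In EV relative to control, Neurog2 passed (log2 fold change 4.30, SE 1.35, edgeR adjusted p = 0.0239) but came to 0.92 without EV replicate 2 (edgeR adjusted p = 0.128). It also lost the threshold without control replicate 1, 2 or 3 (edgeR adjusted p = 0.0702, 0.0775 and 0.0508) and by limma-voom (adjusted p = 0.144). Between the tumour groups neither gene passed (log2 fold changes 1.92, SE 1.18, and 1.74, SE 1.63; edgeR adjusted p = 0.294 and 0.488). Neurog2 did by limma-voom (log2 fold change 3.68, adjusted p = 0.0403). Without EV replicate 2 both passed by edgeR, Neurog2 at 5.31 (edgeR adjusted p = 0.00203) and Neurog1 at 10.64 (edgeR adjusted p = 0.00305). The Neurog1 value then rests on EV libraries with no Neurog1 count and is no bound. EV replicate 2 also had the lowest Myc of the tumours, at 19.9 CPM, and the highest summed pericyte and fibroblast markers, at 12034 CPM against 3489 and 8272 CPM in the other EV tumours. The part of either in the Neurog values was not tested.

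Neurod4, which acts after Neurog2 in several neuronal lineages, was at 0.575, 0.709 and 1.36 CPM in MycT58A tumours, at 0 in all 3 EV tumours and at 0.449, 2.04 and 0 CPM in controls. The 68 counts of MycT58A stood against 0 of EV, at least 20.1-fold higher when EV is set to a floor of 3 counts in all, but the difference did not pass (edgeR adjusted p = 0.0806; DESeq2 adjusted p = 0.00608). EV was at least 19.5-fold lower than control on the same floor (edgeR adjusted p = 0.0272), although control replicate 3 also held no count and the groups overlap. Without control replicate 2 that adjusted p was 0.0724 (fitted log2 fold change -5.50), without EV replicate 1 it was 0.0601, and by limma-voom it was 0.0679.

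**Figure D2:**
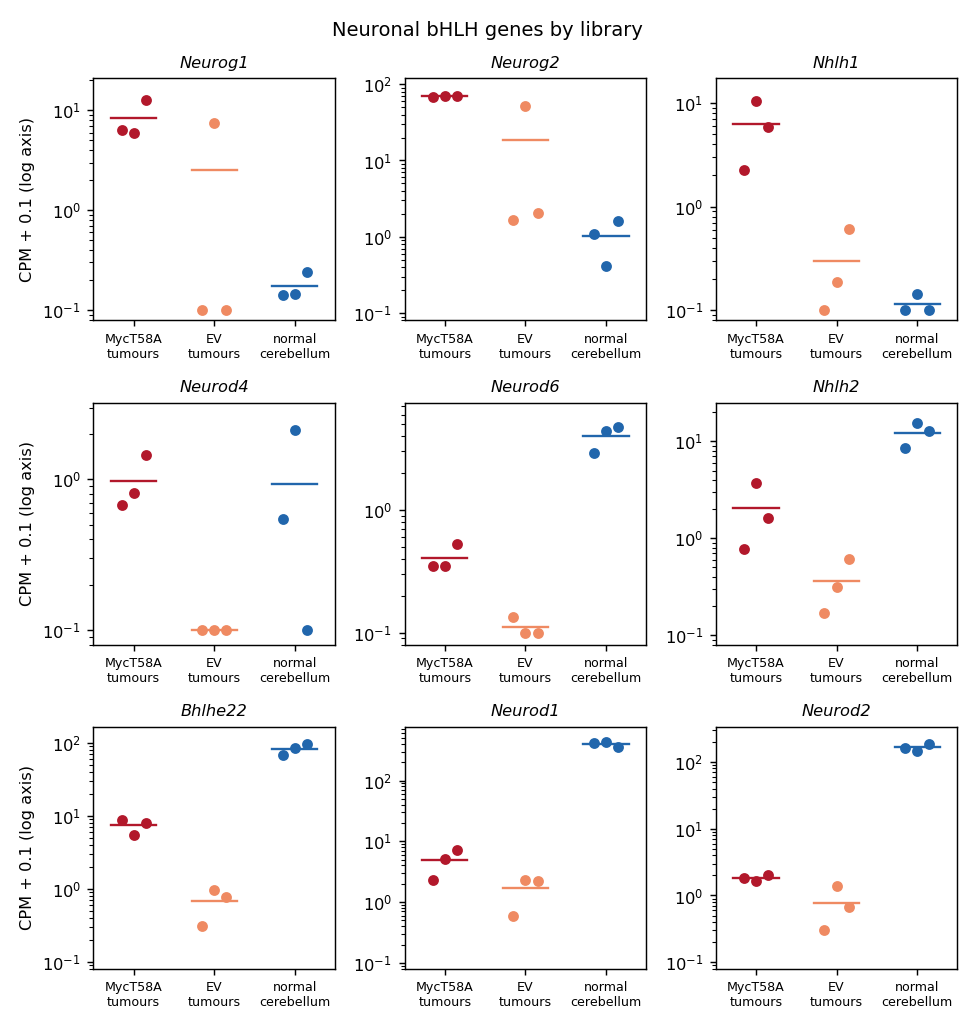
Levels of neuronal bHLH genes in each library, as CPM + 0.1 on a log axis, with MycT58A tumours, EV tumours and normal cerebellum from left to right; points are libraries and lines are group means. Neurog2 is even in MycT58A (67.3 to 70.7 CPM) and high in 1 EV library, while Neurod1, Neurod2 and Bhlhe22 are highest in the 3 controls.

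The oligodendrocyte factors fell in both tumour groups. Olig1, which promotes oligodendrocyte maturation, was at 9.38, 0.142 and 1.06 CPM in MycT58A tumours, at 2.19, 2.46 and 1.25 CPM in EV tumours and at 62.5, 62.8 and 55.2 CPM in controls. Olig2, which specifies the lineage, was at 1.98, 0.461 and 0.426 CPM in MycT58A tumours, at 0.411, 0.339 and 0.113 CPM in EV tumours and at 15.6, 16.2 and 18 CPM in controls. Tumours and controls did not overlap, and MycT58A replicate 1 had the most of both genes among the tumours.

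Olig1 fell by 4.92 (SE 1.20) in EV and fell by 4.09 (SE 1.14) in MycT58A relative to control (edgeR adjusted p = 0.00786 and 0.013), and Olig2 fell by 5.79 (SE 0.76) and fell by 4.11 (SE 0.69) (edgeR adjusted p = 0.000388 and 0.00106). Without MycT58A replicate 1, Olig1 fell by 6.64 and Olig2 fell by 5.20 in MycT58A. The 8 oligodendrocyte markers summed to 694 CPM in MycT58A replicate 1, against 58.9 and 90.8 CPM in the other MycT58A tumours, 79.4 to 299.6 CPM in EV tumours and 2870.1 to 5258 CPM in controls, with no marker at 0. Their part in the Olig values was not tested.

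Atoh8, a distant member of the atonal family with roles in endothelial and muscle cells, was the one Atoh gene that rose in both tumour groups. Its levels were 37.2, 17.7 and 28.4 CPM in MycT58A tumours, 43.3, 33.3 and 11.2 CPM in EV tumours and 2.37, 2.12 and 2.47 CPM in controls. The lowest tumour library stood well above the highest control, and the tumour groups overlapped. Atoh8 rose by 3.65 (SE 0.52) in EV and by 3.58 (SE 0.52) in MycT58A relative to control (edgeR adjusted p = 0.000564 and 0.000504), and all alternatives kept both calls. Its promoter at chr6:72235528-72235827 (GRCm38.p6, minus strand) is shown because it holds both E-boxes searched, CACGTG and CAGCTG, here in capitals.
Atoh8: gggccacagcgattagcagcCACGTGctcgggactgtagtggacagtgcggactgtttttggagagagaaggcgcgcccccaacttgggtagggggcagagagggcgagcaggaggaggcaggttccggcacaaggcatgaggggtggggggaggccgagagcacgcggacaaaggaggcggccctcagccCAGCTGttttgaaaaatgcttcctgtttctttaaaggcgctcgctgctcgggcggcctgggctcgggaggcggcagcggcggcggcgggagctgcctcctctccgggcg
CACGTG, the form that MYC and MAX bind best, was in 7.15% of all promoter windows and in 2 of the 37 windows of these genes, those of Atoh8 and Bhlhe41.

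Atoh7, known from retinal ganglion cells, was listed at 0, 0 and 0.0426 CPM in MycT58A tumours, at 0 in the 3 EV tumours and at 2.04, 1.81 and 1.35 CPM in controls. EV was at least 41.1-fold lower than control (edgeR adjusted p = 0.000949). MycT58A, with 1 count, was 139-fold lower by counts, with an interval of 24.5 to 5544 (edgeR adjusted p = 0.00101), and without replicate 3, which holds that count, the fitted log2 fold change was -8.41. The remaining proneural genes fell below the filter. Atoh1, the granule progenitor factor, had 1 count in all MycT58A libraries together and 0 in EV and control libraries. Ptf1a had 11 counts in MycT58A, 6 in EV and 8 in control libraries, Neurog3 had 1 count in 1 control library, and Ascl2 had 8, 63 and 3 counts in the MycT58A, EV and control libraries. Olig3, a factor of rhombic lip progenitors, had 58 counts in MycT58A, 5 in EV and 1 in control libraries. With no filter on low counts, Ascl2 passed as higher in EV than in control (log2 fold change 4.59, edgeR adjusted p = 0.0337) and Olig3 as higher in MycT58A than in control (log2 fold change 5.25, edgeR adjusted p = 0.00813), and Atoh1, Ptf1a and Neurog3 passed no comparison.

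The E proteins were the bHLH class that rose as a whole in both tumour groups. Tcf3, which encodes E12 and E47, was at 226, 232 and 219 CPM in MycT58A tumours, at 217, 110.1 and 114 CPM in EV tumours and at 14.4, 17.3 and 16.5 CPM in controls. Tcf12, which encodes HEB, was at 1121, 1477 and 1181 CPM in MycT58A tumours, at 1356, 842 and 303 CPM in EV tumours and at 80.1, 100.4 and 113 CPM in controls. Tcf4, which encodes E2-2, was at 881, 1198 and 955 CPM in MycT58A tumours, at 1434, 1306 and 574 CPM in EV tumours and at 299, 313 and 333 CPM in controls. For each gene all 6 tumour libraries were above all 3 controls.

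Tcf3 rose by 3.20 (SE 0.29) in EV and by 3.81 (SE 0.30) in MycT58A relative to control (edgeR adjusted p = 7.16e-05 and 3.6e-05). Tcf12 rose by 3.09 (SE 0.49) and 3.69 (SE 0.51) (edgeR adjusted p = 0.000987 and 0.00038), and Tcf4 by 1.81 (SE 0.34) and 1.68 (SE 0.34) (edgeR adjusted p = 0.00216 and 0.00252). These 6 calls held in each of the 17 alternatives. The summed level of 4 proliferation markers also differed, at 1463 to 1611 CPM in MycT58A tumours, 309 to 975 CPM in EV tumours and 1.73 to 28.5 CPM in controls, with no marker at 0, and its part in the E protein values was not tested. Between MycT58A and EV tumours none of the 3 passed by edgeR, DESeq2 or limma-voom. Tcf3 alone had an unadjusted p under 0.05; it had a log2 fold change of 0.62 (edgeR adjusted p = 0.156) and passed only without EV replicate 1 (1.01, edgeR adjusted p = 0.0139).

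The ID genes split into 2 pairs. Id1 and Id3 rose in both tumour groups, Id4 fell in both, and Id2 lay below control in every tumour library, past the threshold in EV. Id1 was at 151, 60.7 and 102 CPM in MycT58A tumours, at 83.5, 109 and 101 CPM in EV tumours and at 5.14, 6.55 and 5.27 CPM in controls. Id3 was at 286, 192 and 219.8 CPM in MycT58A tumours, at 309, 404 and 139.7 CPM in EV tumours and at 10.3, 9.87 and 12.8 CPM in controls. Tumours were above controls in every library for both genes, with overlapping tumour groups.

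Id1 rose by 4.11 (SE 0.35) in EV and by 4.21 (SE 0.35) in MycT58A relative to control (edgeR adjusted p = 5.61e-05 and 4.54e-05), and Id3 by 4.69 (SE 0.42) and 4.40 (SE 0.41) (edgeR adjusted p = 6.56e-05 and 6.76e-05). Id4 was at 5.10, 1.81 and 8.47 CPM in MycT58A tumours, at 5.10, 11.9 and 4.36 CPM in EV tumours and at 88.3, 84.8 and 99.6 CPM in controls. It fell by 3.67 (SE 0.60) in EV and fell by 4.15 (SE 0.61) in MycT58A relative to control (edgeR adjusted p = 0.0011 and 0.000543). The direction of Id4 is thus opposite to that of Id1 and Id3 in both tumour groups.

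Id2 was at 84.9, 44.8 and 47.7 CPM in MycT58A tumours, at 31.6, 21.1 and 103 CPM in EV tumours and at 147, 162 and 161 CPM in controls. Every tumour library lay below every control. Id2 fell by 1.59 (SE 0.55) in EV (edgeR adjusted p = 0.0356), and the log2 fold change of -1.40 (SE 0.55) in MycT58A did not pass (edgeR adjusted p = 0.0508), which does not show a difference between the tumour groups. The MycT58A change passed in 9 of the 17 alternatives, DESeq2 (adjusted p = 0.0186) and limma-voom (adjusted p = 0.0214) among them. The EV call was lost without EV replicate 1 or 2 (edgeR adjusted p = 0.103 and 0.0598), without MycT58A replicate 3 (0.0521) and without control replicate 1, 2 or 3 (0.0789, 0.0888 and 0.0889), and Id2 fell by 2.56 without EV replicate 3. No ID gene passed between MycT58A and EV tumours (edgeR adjusted p = 0.574 to 0.845), also not by DESeq2, limma-voom or an unadjusted p under 0.05. The direction of each changed under at least 1 alternative, and Id2 alone passed under one, without EV replicate 3 (log2 fold change 1.17, edgeR adjusted p = 0.0351).

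**Figure D3:**
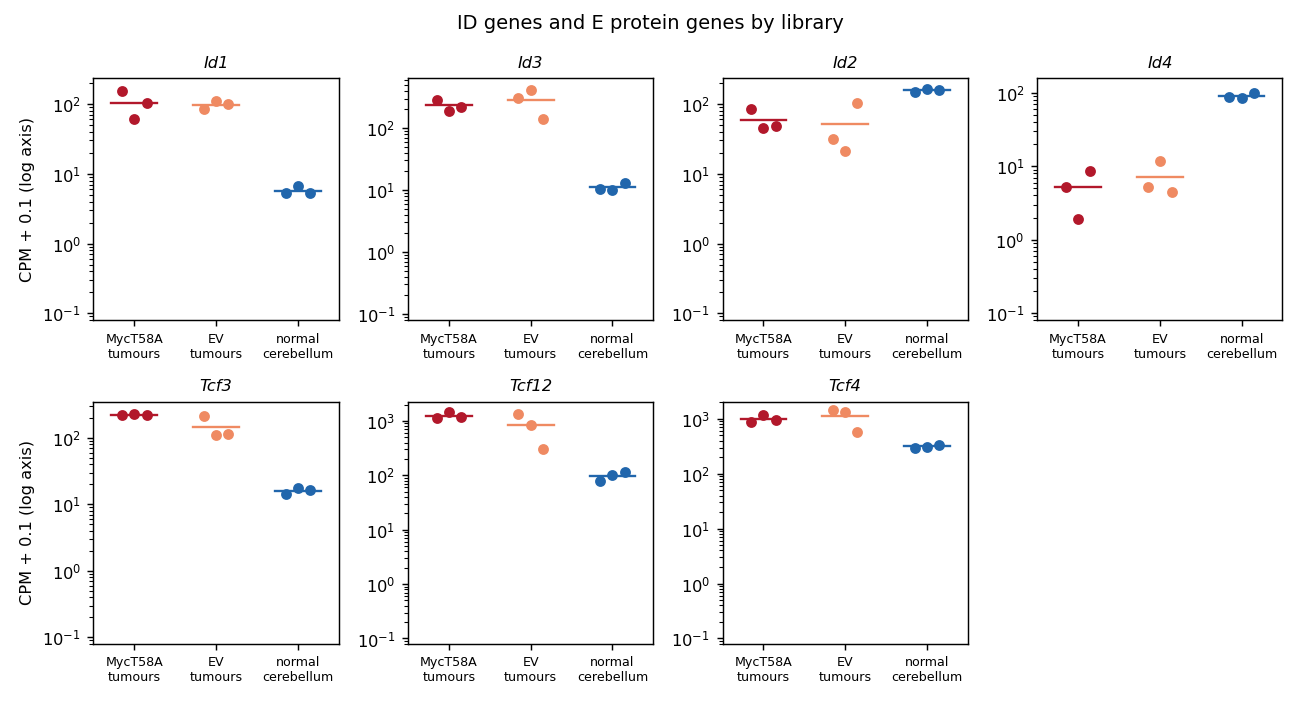
Levels of the 4 ID genes (top) and the 3 E protein genes (bottom) in each library, as CPM + 0.1 on a log axis, with MycT58A tumours, EV tumours and normal cerebellum from left to right; points are libraries and lines are group means. Id1, Id3 and the 3 E protein genes are above control in all 6 tumour libraries, and Id2 and Id4 are below it.

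Levels of different genes were compared per kilobase of the longest coding transcript in GENCODE M21. On that scale the most abundant E protein gene was Tcf12 in MycT58A tumours, at a mean of 199.97 CPM per kb, beside 118 for Tcf4 and 76.5 for Tcf3. In EV tumours Tcf12 and Tcf4 were alike, at 132 and 129 CPM per kb, and in controls Tcf4 led at 36.7 CPM per kb. Among the ID genes, Id3 led in MycT58A and EV tumours (182 and 222 CPM per kb) and Id2 in controls (79.5 CPM per kb).

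The summed E protein level was 357, 453 and 373 CPM per kb in MycT58A tumours, 456, 323 and 154 CPM per kb in EV tumours and 52.4, 58.3 and 62.3 CPM per kb in controls. The summed ID level was 399, 226 and 286 CPM per kb in MycT58A tumours, 331, 424 and 249.8 CPM per kb in EV tumours and 110.1, 117 and 122 CPM per kb in controls. Both sums were higher in every tumour library than in every control. The ratio of E protein to ID transcripts was 0.896, 2.01 and 1.3 in MycT58A tumours, 1.38, 0.763 and 0.616 in EV tumours and 0.476, 0.497 and 0.510 in controls. All 6 tumour libraries had a higher ratio than the 3 controls, and the tumour groups overlapped; the ratio was not tested, since its members were chosen with results known.

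The HES and HEY genes, 7 of 8 of which were tested, went both ways. In EV relative to control 3 rose and 2 fell, in MycT58A relative to control 2 rose and 3 fell, and between the tumour groups 0 of 7 passed by edgeR. In that last comparison 2, Hes1 and Hey1, were lower at an unadjusted p under 0.05, and Hes1 alone passed by DESeq2 (adjusted p = 0.0132).

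Hes6, which unlike other HES proteins promotes neuronal differentiation, was at 83.8, 111 and 73.3 CPM in MycT58A tumours, at 66.4, 54.8 and 107 CPM in EV tumours and at 15, 12.6 and 13.8 CPM in controls. Every tumour library lay above every control. It rose by 2.46 (SE 0.29) in EV and by 2.69 (SE 0.29) in MycT58A relative to control (edgeR adjusted p = 0.000227 and 0.000128), in each of the 17 alternatives. Hes1, the repressor that keeps neural progenitors undifferentiated, was at 14.5, 10.2 and 13.5 CPM in MycT58A tumours, at 14.1, 58.3 and 34.2 CPM in EV tumours and at 8.78, 7.83 and 6.29 CPM in controls. EV replicates 2 and 3 were above the MycT58A range. Hes1 rose by 2.22 (SE 0.47) in EV relative to control (edgeR adjusted p = 0.00412). In MycT58A relative to control it did not pass (log2 fold change 0.74, edgeR adjusted p = 0.185), although every MycT58A library lay above every control. That change passed in 3 of the 17 alternatives. These were edgeR with only these groups (adjusted p = 0.0119) or without EV replicate 1 (0.0432), and limma-voom with weights per group (adjusted p = 0.0228). The MycT58A over EV difference, at -1.48 (SE 0.46), also missed the threshold (edgeR adjusted p = 0.0749) but passed without EV replicate 1 (-1.85, edgeR adjusted p = 0.0153).

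Hes5, the Notch target of neural progenitors and glia, was at 0.0719, 0.142 and 0.468 CPM in MycT58A tumours, at 0, 0.170 and 0 CPM in EV tumours and at 1.96, 1.99 and 1.45 CPM in controls. Hes3, active in early neural progenitors, was at 0.0359, 0.0355 and 0.341 CPM in MycT58A tumours, at 0, 0.127 and 0 CPM in EV tumours and at 13.6, 18.2 and 20.7 CPM in controls. Both were near 0 in all tumours. Hes5 fell by 4.85 (SE 1.14) in EV and fell by 2.98 (SE 0.98) in MycT58A relative to control (edgeR adjusted p = 0.00664 and 0.0262). The EV counts all lie in replicate 2, without which Hes5 fell by 8.45, while without EV replicate 1 it fell by 4.21. The MycT58A call was lost without MycT58A replicate 1 or 2 (edgeR adjusted p = 0.0956 and 0.095) and without control replicate 1, 2 or 3 (0.066, 0.0683 and 0.0522), and without MycT58A replicate 3 it fell by 4.0.

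Hes3 had 10 counts in MycT58A, 3 in EV and 1188 in control libraries. EV was 407-fold lower by counts, with an interval of 139 to 1977 (edgeR adjusted p = 0.000489), and all 3 EV counts lie in replicate 2; without EV replicate 1 the log2 fold change was -7.85 and without EV replicate 2 it was -11.73. In MycT58A it fell by 7.0 (SE 1.05, edgeR adjusted p = 0.000607), and it fell by 8.74 without replicate 3. The 6 astrocyte and Bergmann glia markers summed to 172 to 453 CPM in MycT58A tumours, 299 to 607 CPM in EV tumours and 3651 to 4769 CPM in controls, with no marker at 0. Of these 6 markers, 5 were lower than in control in each tumour group and 1 did not pass. Gfap was at 267, 6.06 and 171 CPM in MycT58A tumours and 242, 339 and 197 CPM in EV tumours. Its control levels were 285, 224 and 571 CPM. The 5 Purkinje cell markers fell, with 5 of 5 lower in each tumour group than in control. They summed to 87.5 to 143 CPM in MycT58A tumours, 95.9 to 305 CPM in EV tumours and 8928 to 10514.5 CPM in controls. The part of either cell type in the Hes5, Hes3 and Id4 values was not tested.

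The HEY genes, repressors downstream of Notch in vessels, heart and brain, differed from each other. Hey2 was at 20.3, 22.9 and 13.0 CPM in MycT58A tumours, at 5.65, 35.5 and 14.4 CPM in EV tumours and at 4.57, 5.0 and 5.04 CPM in controls. Hey1 was at 16.3, 14.1 and 19.6 CPM in MycT58A tumours, at 17.2, 24.4 and 47.3 CPM in EV tumours and at 40.7, 40.5 and 52.4 CPM in controls. Hey2 was above and Hey1 below control in every MycT58A library. Hey2 rose by 1.92 (SE 0.59) in EV and by 1.94 (SE 0.59) in MycT58A relative to control (edgeR adjusted p = 0.0213 and 0.0183). The EV value came to 1.04 without EV replicate 2 (edgeR adjusted p = 0.0532), and that call was also lost without control replicate 1, 2 or 3 (0.0632, 0.0586 and 0.0561) and by limma-voom (adjusted p = 0.109). The MycT58A call was lost without MycT58A replicate 2 (edgeR adjusted p = 0.0522) and without control replicate 1 or 2 (0.0555 and 0.0509).

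Hey1 fell by 1.42 (SE 0.36) in MycT58A relative to control (edgeR adjusted p = 0.00857), and did not pass in EV (log2 fold change -0.59, edgeR adjusted p = 0.185), where it did without EV replicate 3 (-1.09, edgeR adjusted p = 0.00734). Heyl was at 2.98 to 3.88 CPM in MycT58A, 2.43 to 16.6 CPM in EV and 2.12 to 3.67 CPM in control libraries and passed no comparison. EV replicate 2 had the highest Hes1, Hey2 and Heyl, and its summed level of 9 endothelial markers was 347 CPM, against 69.2 and 141 CPM in the other EV tumours, 62.0 to 108 CPM in MycT58A tumours and 229 to 251 CPM in controls, with no marker at 0. The part of vessels in these values was not tested. Hes7, the segmentation clock gene, had 17, 16 and 14 counts in the MycT58A, EV and control libraries, below the filter, and passed no comparison without it.

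The promoters of Hes5 and Hey2 are shown because they moved in opposite directions in both tumour groups and each holds the RBPJ core TGGGAA at 2 places, in capitals (TTCCCA where it lies on the other strand). Both are RefSeq windows of GRCm38.p6, at chr4:154960673-154960972 on the plus strand for Hes5 and chr10:30842734-30843033 on the minus strand for Hey2.
Hes5: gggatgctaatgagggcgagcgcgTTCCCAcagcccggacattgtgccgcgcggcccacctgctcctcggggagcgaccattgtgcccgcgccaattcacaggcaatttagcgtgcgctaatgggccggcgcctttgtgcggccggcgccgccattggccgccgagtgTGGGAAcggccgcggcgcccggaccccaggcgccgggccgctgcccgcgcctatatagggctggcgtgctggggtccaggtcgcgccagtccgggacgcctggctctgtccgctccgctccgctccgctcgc
Hey2: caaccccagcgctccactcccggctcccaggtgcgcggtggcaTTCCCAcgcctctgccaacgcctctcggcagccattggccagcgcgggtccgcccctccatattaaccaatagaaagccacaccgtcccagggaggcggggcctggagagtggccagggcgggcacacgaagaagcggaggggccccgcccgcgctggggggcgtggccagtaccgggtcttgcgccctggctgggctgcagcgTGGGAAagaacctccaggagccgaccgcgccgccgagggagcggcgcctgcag
In Hes5 the cores begin 226 and 82 bases before the start, and in Hey2 207 and 3 bases before it.

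**Figure D4:**
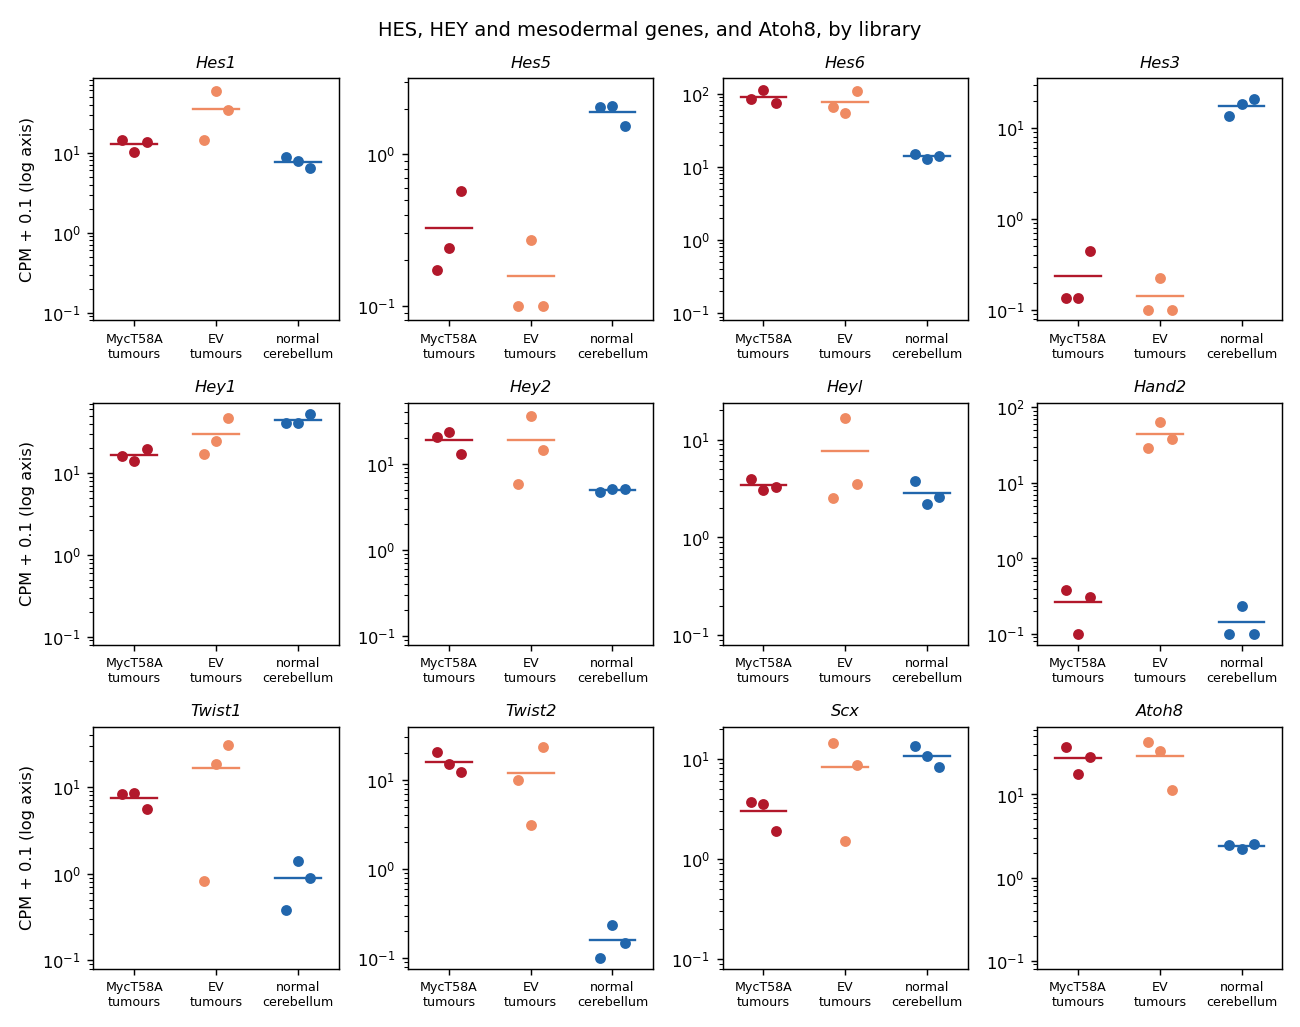
Levels of HES, HEY and mesodermal bHLH genes and Atoh8 in each library, as CPM + 0.1 on a log axis, with MycT58A tumours, EV tumours and normal cerebellum from left to right; points are libraries and lines are group means. Hand2 stands at 29.0 to 64.4 CPM in the EV tumours and at or below 0.288 CPM in the 6 other libraries.

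Of the repressors Bhlhe40 and Bhlhe41, which act in circadian control and stress responses, Bhlhe41 was at 8.34, 3.62 and 5.28 CPM in MycT58A tumours, at 17.9, 26.5 and 4.93 CPM in EV tumours and at 69.0, 64.8 and 69.2 CPM in controls. It fell by 2.04 (SE 0.55) in EV and fell by 3.56 (SE 0.59) in MycT58A relative to control (edgeR adjusted p = 0.0128 and 0.000966). No tumour library reached control, and EV replicate 3 was at the level of MycT58A. The MycT58A over EV change did not pass (log2 fold change -1.52, edgeR adjusted p = 0.105). It did pass by DESeq2 (log2 fold change -1.56, adjusted p = 0.0312) and without EV replicate 3 (-1.94, edgeR adjusted p = 0.00779). Bhlhe40 was at 44.1, 48.8 and 25.0 CPM in MycT58A tumours, at 34.5, 48.0 and 99.8 CPM in EV tumours and at 77.4, 77.5 and 91.9 CPM in controls. The EV libraries spanned the other groups. Bhlhe40 fell by 1.07 (SE 0.40) in MycT58A relative to control (edgeR adjusted p = 0.0455), a call lost on leaving out any 1 MycT58A library (edgeR adjusted p = 0.0843, 0.06 and 0.145) or any 1 control library (0.093, 0.0917 and 0.129). In EV it did not pass (log2 fold change -0.44, edgeR adjusted p = 0.37).

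Hand2 gave the largest fitted difference between the tumour groups among the 35 genes. Hand2, a factor of heart, limb and branchial arch mesenchyme, lies at chromosome 8, 57320983 to 57324633 (mm10, plus strand). Its levels were 0.288, 0 and 0.213 CPM in MycT58A tumours, 29.0, 64.4 and 37.8 CPM in EV tumours and 0, 0.133 and 0 CPM in controls, from 13, 3034 and 3 counts. All 3 EV libraries stood above the other 6 without overlap. It fell by 8.01 (SE 1.05) in MycT58A relative to EV (edgeR adjusted p = 0.00936), and EV was 984-fold above control by counts, with an interval of 336 to 4774 (edgeR adjusted p = 0.000255). The 3 control counts all lie in replicate 2, without which the fitted log2 fold change of EV over control was 13.07.

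The MycT58A over EV call of Hand2 was lost without MycT58A replicate 1 (log2 fold change -8.68, edgeR adjusted p = 0.0553) or replicate 3 (edgeR adjusted p = 0.0676), and without MycT58A replicate 2 the value was -7.40. MycT58A and control did not differ past the threshold (ratio 3.74, interval 1.03 to 20.4, edgeR adjusted p = 0.249). EV replicate 3, whose Myc was within the MycT58A range, was among the 3 with high Hand2. The neighbour Hand2os1 runs on the opposite strand over an exon of Hand2, and the sources do not say whether counting used strand. The start of Hand2, chr8:57320733-57321032 (GRCm38.p6, plus strand), is shown as that of the gene with the largest difference, with an RBPJ core after the start in capitals.
Hand2: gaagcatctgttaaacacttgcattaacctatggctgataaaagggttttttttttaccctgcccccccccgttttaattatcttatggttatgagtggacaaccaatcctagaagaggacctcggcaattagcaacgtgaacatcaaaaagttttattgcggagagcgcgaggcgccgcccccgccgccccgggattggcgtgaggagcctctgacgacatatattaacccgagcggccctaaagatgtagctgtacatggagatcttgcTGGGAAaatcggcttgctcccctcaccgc
This window held neither E-box searched nor the TCF/LEF motifs CTTTGAT and CTTTGAA, which were in 8.65% of all windows and in those of Atoh1 and Lyl1 among the bHLH genes.

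Of 9 pericyte and fibroblast markers, 2 fell and 7 did not pass in MycT58A relative to EV, and 7 rose and 2 did not pass in EV relative to control. They summed to 1445 to 1798 CPM in MycT58A tumours, 3489 to 12034 CPM in EV tumours and 297 to 369 CPM in controls, with no marker at 0. The part of these cells in the Hand2 values was not tested.

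Twist2 and Twist1, factors of mesenchyme and of epithelial to mesenchymal change, rose in tumours. Twist2 was at 20.3, 14.9 and 12.3 CPM in MycT58A tumours, at 9.85, 3.05 and 23.1 CPM in EV tumours and at 0, 0.133 and 0.0466 CPM in controls. Every tumour library exceeded every control. It rose by 7.55 (SE 1.05) in EV and by 7.95 (SE 1.06) in MycT58A relative to control (edgeR adjusted p = 0.00049 and 0.000322), or by 6.67 without EV replicate 3, and by 8.83 and 9.19 without control replicate 2. The predicted antisense gene Gm29100 overlaps Twist2.

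Twist1 was at 8.19, 8.37 and 5.45 CPM in MycT58A tumours, at 0.718, 18.4 and 30.6 CPM in EV tumours and at 0.286, 1.28 and 0.793 CPM in controls. EV replicate 1 was at the control level and the other EV libraries were above all MycT58A libraries. Twist1 rose by 4.39 (SE 1.15) in EV relative to control (edgeR adjusted p = 0.0111), with 3.60 without EV replicate 3, and limma-voom did not call it (adjusted p = 0.142). It rose by 3.22 (SE 1.10) in MycT58A relative to control (edgeR adjusted p = 0.0305), a call lost without MycT58A replicate 1 or 2 (edgeR adjusted p = 0.0629 and 0.0631) and on leaving out any 1 control library (0.0948, 0.0515 and 0.0824), and by limma-voom (adjusted p = 0.108). Among the EV libraries, the pericyte and fibroblast sum was lowest in replicate 1, as was Twist1, but the markers differed. In EV replicates 1, 2 and 3, Col1a1 was at 11.1, 3100 and 6000 CPM, and Col1a2 was also lowest in replicate 1. Acta2 went the other way, at 764, 160 and 11.6 CPM, and Lum and Pdgfra were also highest in replicate 1. The other markers were in between there. The part of these cells in the Twist1 values was not tested.

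Scx, the tendon factor scleraxis, was at 3.63, 3.40 and 1.79 CPM in MycT58A tumours, at 14.3, 1.40 and 8.61 CPM in EV tumours and at 13.3, 10.5 and 8.16 CPM in controls. The EV libraries spread over the whole range, and MycT58A libraries were all below the controls. Scx fell by 1.85 (SE 0.71) in MycT58A relative to control (edgeR adjusted p = 0.0475), a call lost on leaving out any 1 MycT58A library (edgeR adjusted p = 0.0875, 0.0955 and 0.143), any 1 control library (0.125, 0.0958 and 0.0734) or EV replicate 3 (0.0564). In EV it did not pass (log2 fold change -0.40, edgeR adjusted p = 0.64). Tcf15, Tcf21, Hand1 and Msc, factors of somites, visceral mesoderm, heart and muscle, were below the filter, with 1 to 18 counts in MycT58A, 1 to 5 in EV and 1 to 27 in control libraries. With no filter on low counts, Tcf15 passed as lower in EV (log2 fold change -2.92, edgeR adjusted p = 0.0495) and in MycT58A (-3.16, edgeR adjusted p = 0.033) than in control, Msc passed as lower in EV than in control (-3.46, edgeR adjusted p = 0.0303), and Tcf21 and Hand1 passed no comparison.

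The haematopoietic factors Tal1 and Lyl1, needed for blood stem cells and also present in vessels, were low. Tal1 was at 0.359, 0.284 and 0.341 CPM in MycT58A tumours, at 0.821, 0.933 and 0.906 CPM in EV tumours and at 0.735, 0.797 and 0.606 CPM in controls. All MycT58A libraries were below all others. Tal1 fell by 1.11 (SE 0.39) in MycT58A relative to control (edgeR adjusted p = 0.0344), a call lost on leaving out any 1 MycT58A library (edgeR adjusted p = 0.0861, 0.119 and 0.0891) or any 1 control library (0.101, 0.117 and 0.0675). Relative to EV it did not pass (log2 fold change -1.42, SE 0.39, edgeR adjusted p = 0.0567; DESeq2 adjusted p = 0.021). Lyl1 was at 0.142 to 0.511 CPM in MycT58A, 0.396 to 2.16 CPM in EV and 0.408 to 0.708 CPM in control libraries and passed no comparison. The 8 microglia and macrophage markers, none at 0, summed to 40.1 to 107 CPM in MycT58A libraries. They summed to 139 to 484 CPM in EV and 152 to 190 CPM in control libraries. Of 7 erythroid and megakaryocyte markers, the 4 globin genes had no count in any library. The annotation and counter are not stated, so these zeros do not show that red blood cells were absent. Itga2b had 33, 69 and 72 counts in the MycT58A, EV and control libraries, Klf1 had 29, 16 and 14, and Gata1 had 1, 1 and 0. The part of blood cells in the Tal1 values was not tested.

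**Figure D5:**
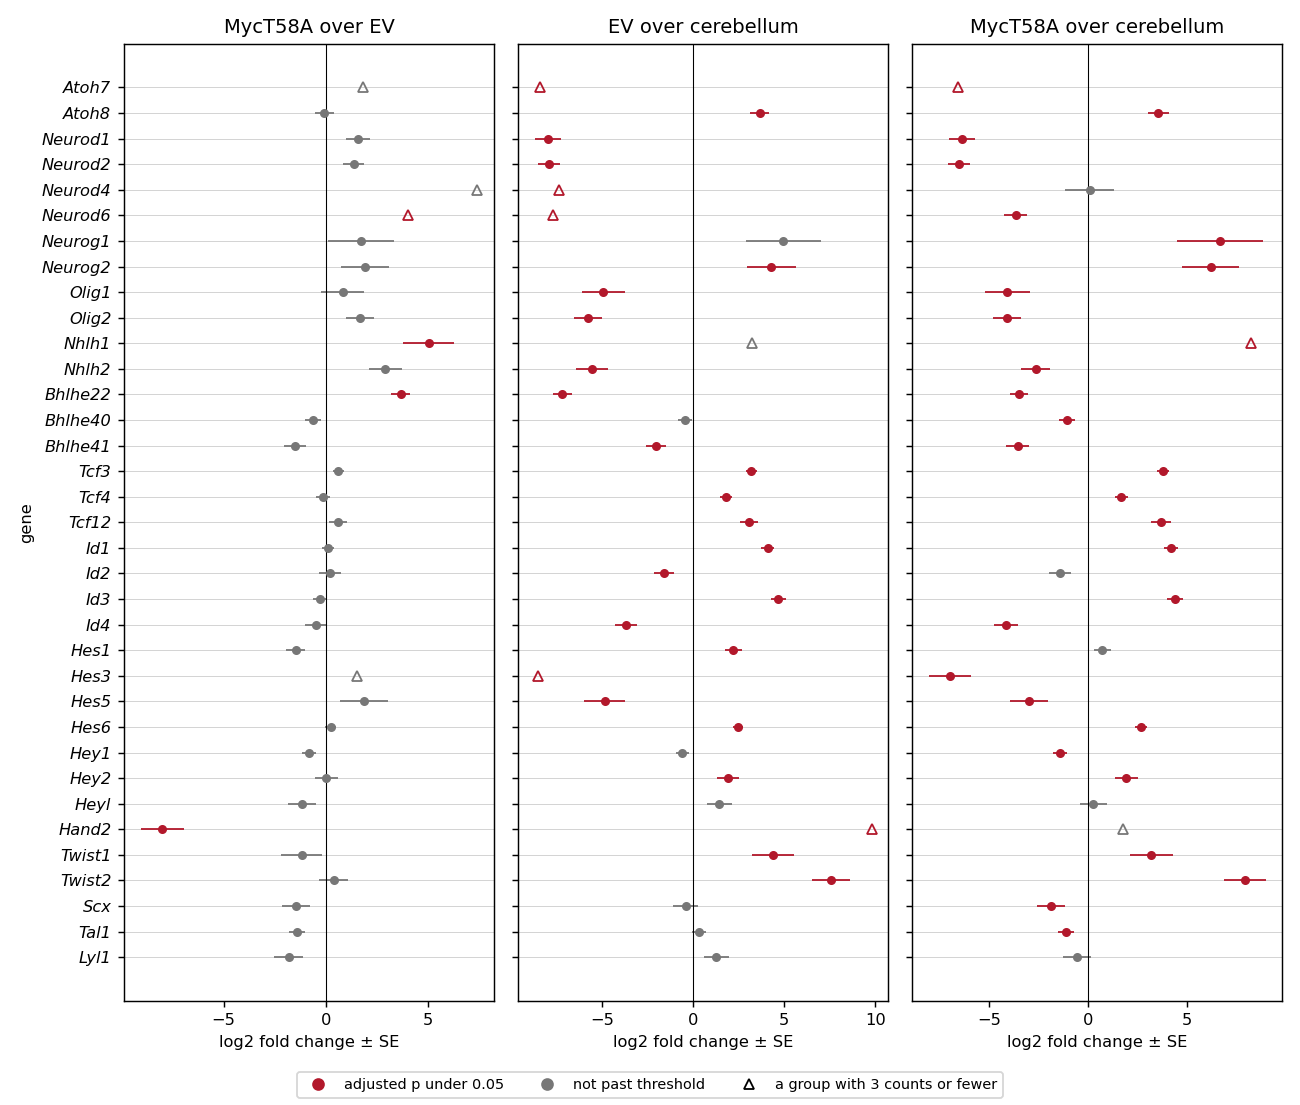
Log2 fold change with its standard error for each tested bHLH gene in the 3 comparisons, MycT58A over EV, EV over control and MycT58A over control, in red where the edgeR adjusted p was under 0.05 and grey elsewhere; open triangles are fitted values for genes with 3 counts or fewer in a group, which are no bounds. Red points are few for MycT58A over EV (4 of 35) and many for the comparisons with control (27 and 29 of 35).

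Genes that act with these factors were counted in 4 lists. Their counts stand beside the same background, 8.3% of all tested genes called for MycT58A over EV, 57% for EV over control and 62.2% for MycT58A over control, and nothing particular to a list is read from them. All 11 of their calls between MycT58A and EV tumours were lost with at least 1 library left out, and the 8 of them named here were each lost without MycT58A replicate 1, 2 or 3. Against control, 3 of 26 calls in EV and 5 of 31 in MycT58A were lost with a library left out. Of 18 Notch pathway genes, 0 rose and 2 fell in MycT58A relative to EV, 6 rose and 0 fell in EV relative to control, and 6 rose and 2 fell in MycT58A relative to control. For the directions with 0, an unadjusted p under 0.05 and DESeq2 also gave 0, and limma-voom gave 0 higher in MycT58A than in EV and 1 lower in EV than in control. The co-repressor Tle2, a HES partner, was at 1.19, 1.99 and 1.32 CPM in MycT58A tumours, at 7.77, 8.53 and 2.55 CPM in EV tumours and at 11.3, 16.2 and 10.2 CPM in controls. It fell by 2.07 in MycT58A relative to EV (edgeR adjusted p = 0.041) and by 3.07 relative to control (edgeR adjusted p = 0.000973), and Tle4 fell by 1.10 relative to EV (edgeR adjusted p = 0.0433). Maml1, a co-activator of Notch with RBPJ, rose by 1.77 in EV and by 1.82 in MycT58A relative to control (edgeR adjusted p = 7.37e-05 and 5.73e-05). Tle1 rose by 1.97 in EV (edgeR adjusted p = 0.00142), and in MycT58A relative to control Rbpj rose by 1.19 (edgeR adjusted p = 0.000401) and the ligand gene Dll1 fell by 2.0 (edgeR adjusted p = 0.0434). The Dll1 call was lost on leaving out any 1 MycT58A library (edgeR adjusted p = 0.0784, 0.131 and 0.085) or any 1 control library (0.0871, 0.0885 and 0.091). The median log2 fold change of the 18 was -0.48, 0.93 and 0.79 in the 3 comparisons.

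Of 16 BMP pathway genes, 1 rose and 5 fell in MycT58A relative to EV, 9 rose and 1 fell in EV relative to control, and 8 rose and 2 fell in MycT58A relative to control. The ligand gene Bmp2 was at 45.8, 48.7 and 27.3 CPM in MycT58A tumours, at 62.2, 125 and 102 CPM in EV tumours and at 2.12, 2.17 and 2.24 CPM in controls. It rose by 5.46 in EV and by 4.22 in MycT58A relative to control (edgeR adjusted p = 2.2e-05 and 4.3e-05), and Smad6, an inhibitor that BMP induces, by 4.21 and 3.20 (edgeR adjusted p = 2.2e-05 and 4.55e-05). The receptor gene Bmpr1b fell by 4.17 in EV and by 2.58 in MycT58A relative to control (edgeR adjusted p = 4.81e-05 and 0.000224) and rose by 1.59 in MycT58A relative to EV (edgeR adjusted p = 0.0252). Relative to EV, MycT58A fell by 1.86 in Acvrl1, an endothelial BMP receptor gene, and by 2.75 in Bambi, a decoy receptor gene (edgeR adjusted p = 0.0216 and 0.0227), where Bambi fell by 1.85 without EV replicate 3. Acvrl1 also fell by 1.61 in MycT58A relative to control (edgeR adjusted p = 0.00338). The median of the 16 was -0.58, 1.33 and 1.53.

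Of 9 bHLH cofactors, 1 rose and 0 fell in MycT58A relative to EV (0 also by DESeq2, limma-voom and an unadjusted p under 0.05), and 3 rose and 2 fell in each tumour group relative to control. Lmo3, a LIM-only adaptor, was at 14.0, 12.9 and 7.92 CPM in MycT58A tumours, at 0.205, 0.255 and 1.13 CPM in EV tumours and at 0.367, 2.39 and 1.12 CPM in controls, and rose by 4.48 relative to EV (edgeR adjusted p = 0.0252), or by 5.64 without EV replicate 3. Lmo2, the partner of TAL1 in blood, rose by 3.50 in EV and by 4.15 in MycT58A relative to control (edgeR adjusted p = 0.000229 and 0.000102), Lmo4 by 2.35 in EV (edgeR adjusted p = 0.0178; 1.3 and 0.0607 without EV replicate 1, and 0.0525, 0.055 and 0.0547 without control replicate 1, 2 or 3) and Lmo1 by 3.64 in MycT58A (edgeR adjusted p = 0.00721). The co-repressor genes Runx1t1 and Cbfa2t3 fell by 5.97 and 3.13 in EV (edgeR adjusted p = 0.000335 and 0.000608) and by 4.74 and 3.23 in MycT58A relative to control (edgeR adjusted p = 0.000584 and 0.000432). Without EV replicate 2, Cbfa2t3 fell by 3.82 in EV. The median of the 9 was 0.54, 0.33 and 0.59.

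Of 22 other tissue-specific bHLH genes 9 were tested, and 1 rose and 1 fell in MycT58A relative to EV, 4 rose and 1 fell in EV relative to control, and 4 rose and 4 fell in MycT58A relative to control. Tal2, a midbrain GABAergic factor, was at 3.99, 5.81 and 9.33 CPM in MycT58A tumours, at 0.205, 0.467 and 0.113 CPM in EV tumours and at 0.122, 0.354 and 0.0466 CPM in controls. It rose by 4.56 in MycT58A relative to EV and by 5.15 relative to control (edgeR adjusted p = 0.0175 and 0.000774), or by 5.23 without EV replicate 2 and by 6.14 without control replicate 2. Tcf24, with 5 counts in MycT58A against 66 in EV libraries, fell by 3.85 (edgeR adjusted p = 0.0195), and fell by 4.45 without MycT58A replicate 2. Ascl4, an achaete-scute family gene, rose by 6.19 in EV and by 6.12 in MycT58A relative to control (edgeR adjusted p = 7.11e-05 and 6.28e-05), and Ascl5, with no control count, was at least 204-fold higher in EV (edgeR adjusted p = 0.00443). Its EV levels were uneven, at 15.5, 7.30 and 0.283 CPM, and the fitted log2 fold change of 10.55, which is no bound, came to 9.49 without EV replicate 1 and to 11.16 without EV replicate 3. Tcf23 fell by 2.88 in EV and by 3.46 in MycT58A (edgeR adjusted p = 0.00367 and 0.0014), and Bhlha9 had 2 counts in MycT58A against 177 in control libraries, a ratio of 103 with an interval of 28 to 854 (edgeR adjusted p = 0.00561).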

How the data were processed

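Total RNA of 9 libraries was sequenced, 3 of MycT58A tumours, 3 of EV tumours and 3 of normal cerebellum. The values deposited by the authors are whole-number counts per gene symbol. The submitters' processing notes list TopHat, bcl2fastq and edgeR and the build mm10; for the versions, annotation, counter and strand setting nothing is stated, so overlapping and antisense genes cannot be told apart. Groups were taken from the labels for source and genotype. Replicates are biological per the series' design, were numbered in order and are not paired.

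The 45 genes and the related lists were chosen with earlier results of these data known. All members are accounted for: those past the threshold anywhere with each library's value, other tested genes by range and the rest by counts; from each related list the genes of the 2 smallest p in each direction are named. Of 24444 symbols, 4711 had no count and 15171 passed filterByExpr (minimum count 10, total 15). Counts were scaled by TMM and fitted over all 9 libraries with 1 mean per group (edgeR 4.0.16, R 4.3.3, glmQLFit and glmQLFTest, 6 residual degrees of freedom), with Benjamini-Hochberg adjustment over all tested genes and a threshold of 0.05. The fit was tested on simulated data that gave all genes and groups the same spread. That test does not cover the larger spread of the EV libraries. All 3 groups share 1 estimate of spread per gene. CPM are counts over TMM-scaled library sizes. Folds against groups without counts are bounds that put 3 counts in the empty group, and where a group had 1 to 3 counts the count ratio has an exact 95% interval; both cover counting error only. The 17 alternatives were 2 other scalings, 2 other filters, a fit of only the groups compared, DESeq2 1.42.0, limma 3.58.1 voom with and without weights per group, and leaving out each of the 9 libraries. Promoters are RefSeq windows of GRCm38.p6, found for 32 of the 45 genes, and gene positions and transcript lengths come from GENCODE M21 (mm10), which held all 45. RefSeq start sites can differ from those of GENCODE. A planned marker list is not reported here.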

Additional observations from a re-analysis of the deposited data

How the results depend on the processing

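Of the called bHLH gene results, 0 of 4 kept their call in all of the 17 alternatives that gave an adjusted p for MycT58A over EV, 21 of 27 for EV over control and 21 of 29 for MycT58A over control, and 0 reversed. Of the 31, 8 and 6 results not called, 13, 2 and 1 changed sign somewhere. For MycT58A over EV the count of 4 became 1 with only these groups in the fit, 10 by DESeq2 and 1 by voom with weights per group, and ranged from 0 to 9 with 1 library left out. The other counts of bHLH genes ranged from 23 to 32 for EV over control and from 23 to 32 for MycT58A over control with 1 library left out, and from 23 to 29 and from 27 to 31 in the other alternatives. The related lists, with 11 calls for MycT58A over EV, gave 0 with only these groups in the edgeR fit (11 at an unadjusted p under 0.05; DESeq2 on all libraries called 12) and 2 by voom with weights per group, and the cause was not tested. Among results not called, Neurog1 for EV over control ranged from -3.93 (reversed, without EV replicate 2) to 5.68 with 1 library left out, and Scx from -1.09 to 0.11 (without EV replicate 2). Neurod4 for MycT58A over control, at 0.09, ranged from -0.47 to 1.93 with 1 library left out, negative without MycT58A replicate 3 or control replicate 1 or 3, and came to -0.023 with library size alone, which moved the median of all genes by -0.091 in that comparison and by -0.12 for MycT58A over EV. Another filter, a fit of only the groups compared or a voom fit also ended the calls of Neurod6, Nhlh1 and Bhlhe22 for MycT58A over EV, of Neurog2, Neurod4, Hey2, Id2, Twist1 and Olig1 for EV over control and of Bhlhe40, Scx, Tal1 and Twist1 for MycT58A over control. No paired analysis was possible because the labels carry no replicate numbers. DESeq2 gave no adjusted p for Neurog1, Neurog2 or Olig1 in any comparison, so it did not test them between the tumour groups either. With 3 libraries a group and uneven EV libraries, differences between the tumour groups that were not called may still exist, and for genes below the filter they were not detectable at this depth.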
